A study of Homo sapiens with 12 samples.

Results

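The 10 genes described here set the pace of the G1 phase: the D-type cyclins CCND1, CCND2 and CCND3, their kinases CDK4 and CDK6, the CDK inhibitors CDKN1A (p21), CDKN1B (p27), CDKN2A (p16 and ARF) and CDKN2B (p15), and the retinoblastoma gene RB1. They were taken by gene symbol from a table of 60623 genes, and all 10 were found and passed the filter on low counts that left 23684 genes for testing. RNA had been sequenced from 2 established human colon cancer cell lines, SW480 and COLO320DM, to ask which genes change when HKDC1, a member of the hexokinase family, is overexpressed. In each line, cells that received pCMV6-HKDC1, in which the CMV promoter drives HKDC1, were set against cells that received the empty vector pCMV6-Entry, with 3 libraries in each of the 4 groups. All groups shared the same handling, with 10 µg of plasmid delivered by Lipofectamine 2000 over 24 h, so every library, empty vector included, came from transfected cells. The expression is transient and comes from a plasmid, and nothing in the labels tells whether the 3 replicates of a group grew as separate cultures. The p-values therefore set differences against the variation among these libraries, which may be technical.

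Passage through G1 turns on a balance of activators and brakes. D-type cyclins accumulate in response to growth signals and activate CDK4 and CDK6, which phosphorylate the RB1 protein and release E2F factors that switch on genes of DNA replication. INK4 inhibitors (the products of CDKN2A and CDKN2B) bind CDK4 and CDK6 directly, while CIP/KIP inhibitors (CDKN1A and CDKN1B) act on cyclin-CDK complexes and mainly restrain CDK2. In colon epithelium this balance is a common target of change in tumours, since WNT and β-catenin signalling feeds into CCND1 and the CDKN2A and CDKN2B locus is often silenced.

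The libraries held 33790733 to 45451279 counts. As a check of the labels, HKDC1 reached 12231 to 14308 CPM (counts scaled to a common library total) in SW480 cells with the HKDC1 plasmid and 34.1 to 38.4 CPM in those with empty vector. In COLO320DM it reached 6580 to 9640 CPM with the HKDC1 plasmid and had 0, 1 and 1 counts with empty vector. Of the 10 colon epithelial markers, 8 were over 1 CPM in SW480 and 5 in COLO320DM. EPCAM had 16979 to 23019 counts in SW480 and 56 to 95 in COLO320DM, KRT19 had 10814 to 26052 in SW480 and 0 to 6 in COLO320DM, and CDH1 had 584 to 1737 in SW480 and 0 to 4 in COLO320DM. The keratins KRT8 and KRT18 and the villin gene VIL1 were present in COLO320DM, at 4767 to 6561, 3320 to 4180 and 330 to 475 counts, and more abundant in SW480. The intestinal factor CDX2 was the exception, at 8.55 to 24.5 CPM in SW480 and 1373 to 1555 CPM in COLO320DM. KRT20, CDX1 and CEACAM5 were low in both lines, with 40 to 75, 6 to 18 and 0 to 3 counts in SW480 and 27 to 41, 0 and 0 counts in COLO320DM. The leukocyte gene PTPRC had 0 to 3 counts in SW480 and 1190 to 1609 in COLO320DM. The summed level of 10 colon epithelial markers was 6585 to 9491 CPM in SW480 and 1577 to 1790 CPM in COLO320DM. That of 7 neuroendocrine markers was 61.7 to 83.1 CPM in SW480 and 27.8 to 38.9 CPM in COLO320DM, and that of 8 markers of leukocytes, fibroblasts and endothelium was 8.64 to 16.7 CPM in SW480 and 40.4 to 51.7 CPM in COLO320DM. A few genes made up most of each sum. For the epithelial sum these were KRT8 and KRT18 in SW480 and CDX2 in COLO320DM. ENO2 made up most of the neuroendocrine sum, at 53.2 to 77.04 CPM in SW480 and 24.46 to 34.01 CPM in COLO320DM. NCAM1 and SYP were also higher in SW480, while CHGB was higher in COLO320DM. PTPRC made up most of the last sum in COLO320DM. COL1A1 was also higher there, while CD68 was higher in SW480. These marker differences move with every difference between the lines given below, and their part in it was not tested. In bulk RNA, fewer cells with a transcript and less of it per cell cannot be told apart.

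In both lines, overexpression of HKDC1 left no D cyclin, G1 kinase, CDK inhibitor or RB1 past the test. Of the 10 genes, 0 were called in SW480, where 0.0127% of all tested genes were called, and 0 in COLO320DM, where 0.00844% were. With empty vector alone, 8 of the 10 differed between the lines, against 71.6% of all tested genes. In SW480 relative to COLO320DM, 5 were called higher, namely CCND1, CDK6, CDKN1A, CDKN2A and CDKN2B, against 37.3% of all genes, and 3 were called lower, namely CDK4, CDKN1B and RB1, against 34.3%. CPM are scaled by TMM factors, fold changes are edgeR estimates on a log2 scale with the SE, and a gene was called at a Benjamini-Hochberg adjusted p under 0.05 over all 23684 genes.

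**Figure D1:**
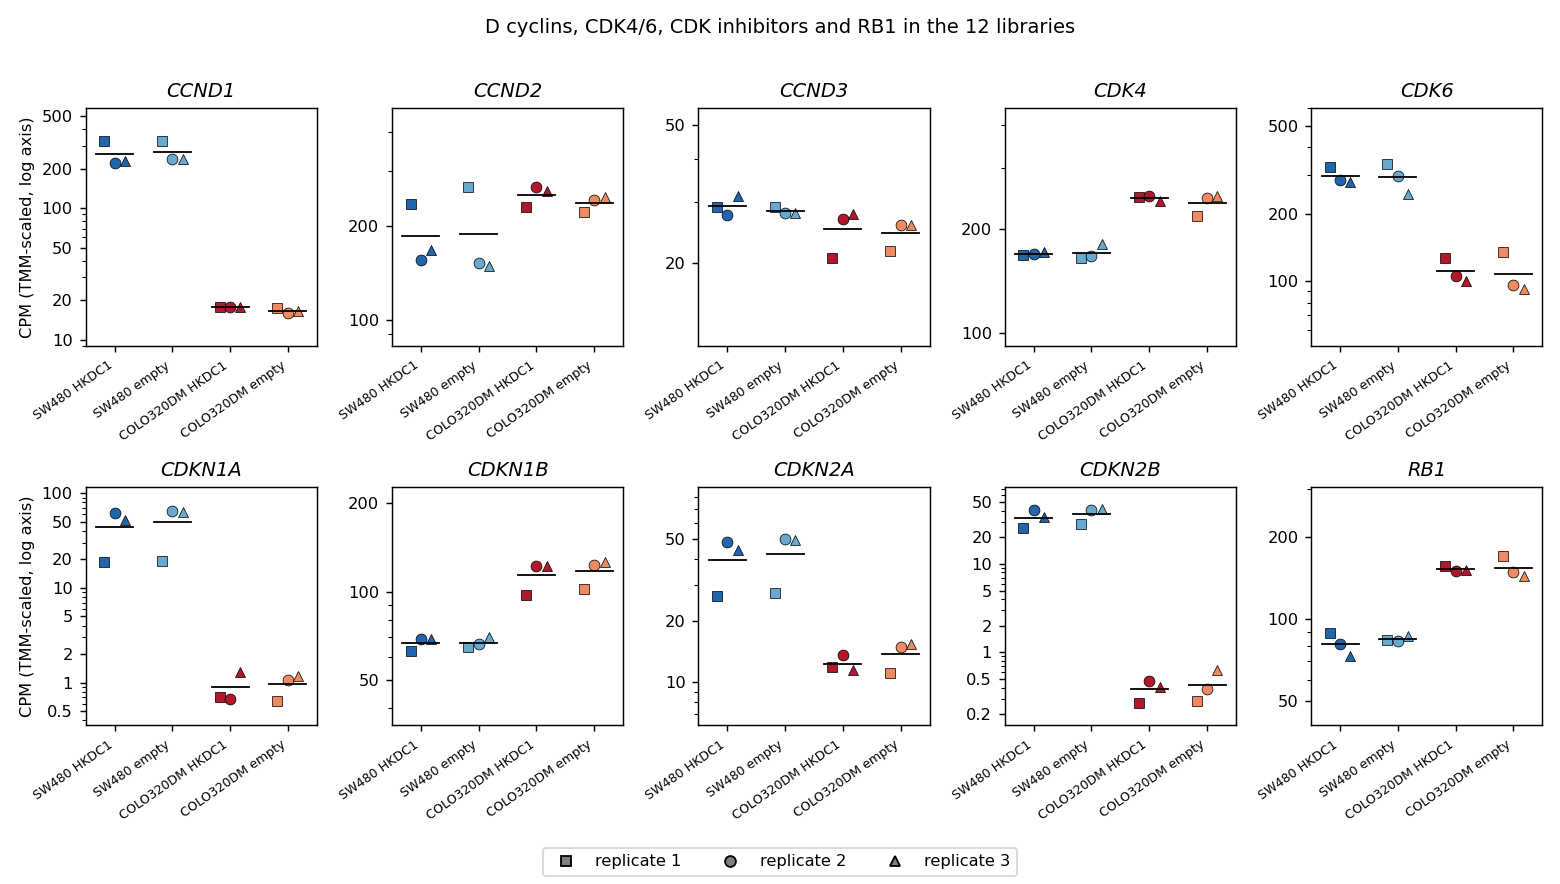
CPM (TMM-scaled, logarithmic axis) of the 10 genes in the 12 libraries, by line and plasmid, with a symbol for each replicate number and a bar at the group mean. CCND1, CDKN1A and CDKN2B are far apart between SW480 and COLO320DM, while the HKDC1 and empty-vector groups of a line lie at like levels, and replicate 1 of SW480 lies low for CDKN1A, at 18.8 CPM with the HKDC1 plasmid and 19.3 CPM with empty vector.

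The lines differed in their main D cyclin. CCND1, the D cyclin most tied to colon and breast cancer, had 324, 222 and 229 CPM in SW480 with the HKDC1 plasmid and 325, 238 and 238 CPM with empty vector. In COLO320DM it had 17.8, 17.7 and 17.8 CPM with the HKDC1 plasmid and 17.3, 16.1 and 16.5 CPM with empty vector. Every SW480 library was thus above every COLO320DM library, and with empty vector the fold change of SW480 over COLO320DM was 16.1 (log2 4.01, SE 0.17, adjusted p = 1.74e-10). The plasmid groups overlapped in SW480, where the HKDC1 library was lower in 3 of 3 same-numbered pairs (log2 fold change −0.05, 95% interval −0.37 to 0.27). Such counts of pairs, here and below, are descriptions only, since the share of all genes with them was not counted. In COLO320DM the plasmid groups did not overlap, with all 3 HKDC1 libraries above all 3 empty-vector ones, at a log2 fold change of 0.10 (−0.24 to 0.43, adjusted p = 1). That was the single one of the 10 genes with separate plasmid groups in COLO320DM, where 7.74% of all tested genes had them and 3.52% with the HKDC1 group higher, and in SW480 0 of the 10 did, against 4.45% of all genes. CCND1 (ENSG00000110092) lies on the plus strand of chromosome 11 at 69641087 to 69654474 (GRCh38), and its exons share 497 bases with LTO1 on the other strand, which had 2116 to 3099 counts in SW480 and 368 to 497 in COLO320DM.

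CCND2, a D cyclin that can stand in for CCND1, was the main one in COLO320DM. It had 236, 155 and 168 CPM in SW480 with the HKDC1 plasmid and 267, 153 and 149 CPM with empty vector. The COLO320DM libraries had 230.1, 267 and 260.0 CPM with the HKDC1 plasmid and 223, 243 and 248 CPM with empty vector. Replicates 2 and 3 of SW480 were below all COLO320DM libraries, while replicate 1 of SW480 was within or near their range with both plasmids. The difference between lines with empty vector was not called over all libraries (log2 −0.33, SE 0.20, adjusted p = 0.165). It was called without replicate 1 of SW480 with empty vector (log2 −0.65, adjusted p = 0.000987), and without replicate 1 of every group (log2 −0.69, adjusted p = 9.02e-13). Both fits leave out the empty-vector SW480 library at 267 CPM, so their p-values rest on the smaller spread of the libraries kept. The plasmid effect on CCND2 was −0.02 in SW480 (−0.47 to 0.42) and 0.08 in COLO320DM (−0.36 to 0.53, 3 of 3 pairs higher). CCND2 (ENSG00000118971, chromosome 12, 4273762 to 4305353, plus strand) shares 999 exonic bases with an unnamed gene on its own strand (ENSG00000285901, 1963 to 2572 counts in SW480 and 2590 to 3352 in COLO320DM) and 162 with CCND2-AS1 on the other strand (492 to 675 counts in SW480 and 667 to 1051 in COLO320DM), so its counts are uncertain to that extent.

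CCND3 (ENSG00000112576, chromosome 6, 41934933 to 42050357, minus strand), the remaining D cyclin, was low in both lines. It had 29.1, 27.5 and 31.3 CPM in SW480 with the HKDC1 plasmid and 29.0, 27.9 and 28.0 CPM with empty vector. COLO320DM cells had 20.8, 26.8 and 27.7 CPM with the HKDC1 plasmid and 21.7, 25.8 and 25.8 CPM with empty vector. With empty vector the 3 SW480 libraries were above the 3 COLO320DM libraries, but the difference was not called (log2 0.21, SE 0.12, adjusted p = 0.120). Its plasmid effect was 0.05 in SW480 (−0.20 to 0.30) and 0.04 in COLO320DM (−0.22 to 0.29).

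To compare the 3 cyclins with each other, their counts were divided by the exon length of each gene. In SW480, CCND1 made up 63.2% ± 0.89 of the summed D cyclin read density with the HKDC1 plasmid and 64.2% ± 2.42 with empty vector (SD, n = 3 each), while CCND2 made up 30.7% ± 0.67 with the HKDC1 plasmid and 30.0% ± 3.47 with empty vector. In COLO320DM, CCND2 made up 81.5% ± 0.34 with the HKDC1 plasmid and 81.3% ± 0.29 with empty vector, while CCND1 made up 8.55% ± 0.69 with the HKDC1 plasmid and 8.45% ± 0.76 with empty vector. CCND3 accounted for 4.57 to 7.06% across the SW480 libraries and 9.09 to 10.7% across the COLO320DM libraries. The leading cyclin was therefore CCND1 in all 6 SW480 libraries and CCND2 in all 6 COLO320DM libraries. The shares differed between plasmids by less than the wider SD of the 2 groups, but not always by less than the narrower. In SW480 the difference was −1.04 for CCND1 and 0.70 for CCND2, against SDs of 0.89 and 0.67 with the HKDC1 plasmid. Exact two-sided permutation p ran from 0.4 to 0.9, where 3 against 3 libraries cannot give a p below 0.1. That test leaves the pairing out. By same-numbered pairs, the share was higher with the HKDC1 plasmid in 3 of 3 for CCND3 in SW480 and for CCND1 in COLO320DM, and 3 pairs cannot give a two-sided p below 0.25. The summed D cyclin density was 84.5 ± 17.8 CPM per kilobase with the HKDC1 plasmid and 86.6 ± 19.8 with empty vector in SW480, and 43.2 ± 3.33 with the HKDC1 plasmid and 40.8 ± 2.15 with empty vector in COLO320DM (SD, n = 3 each).

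**Figure D2:**
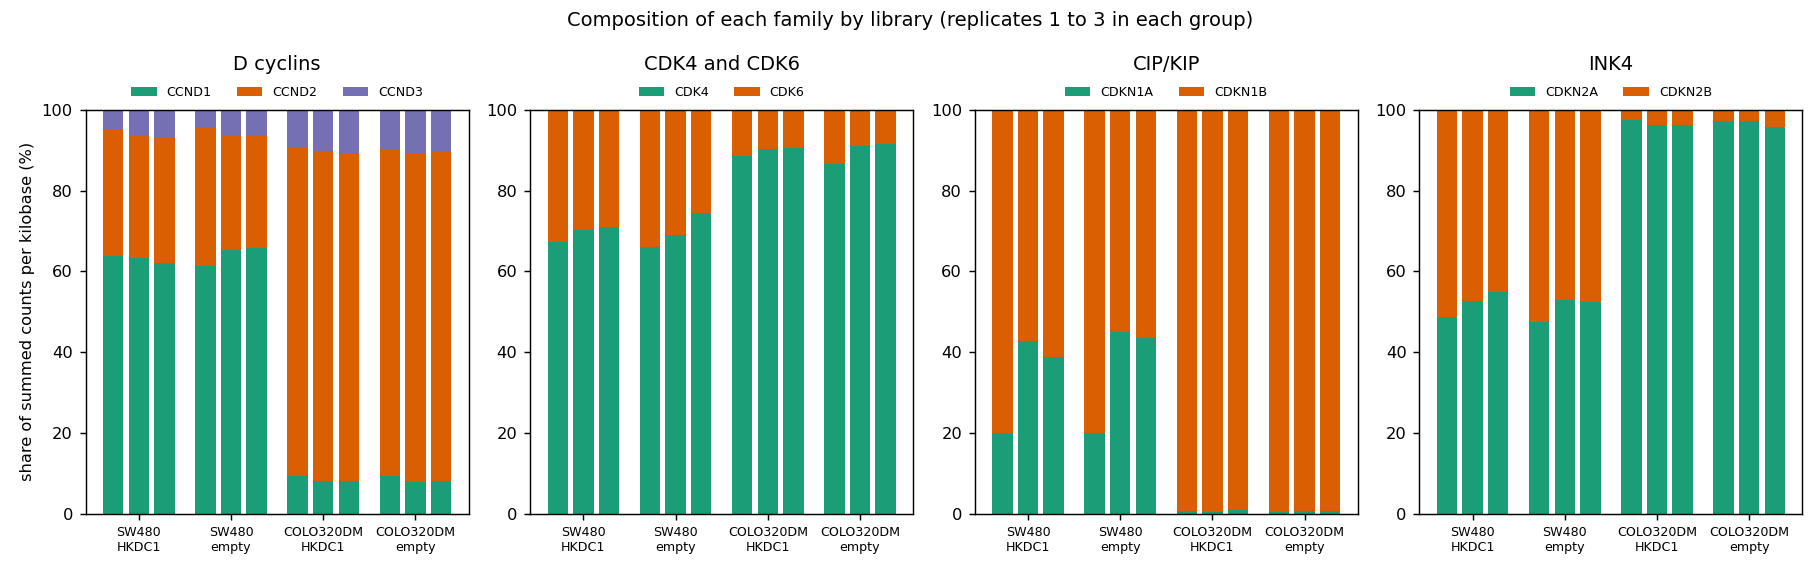
Share of each gene in the summed counts per kilobase of its family (percent), in the 12 libraries, with replicates 1 to 3 side by side in each group. CCND1 leads the D cyclins in SW480 (61.4 to 65.9%) and CCND2 in COLO320DM (80.9 to 81.8%), and the HKDC1 and empty-vector libraries of a line have like compositions.

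CDK4 and CDK6, the kinases that D cyclins activate, differed between the lines in opposite directions. CDK4 had 169, 169.5 and 172 CPM in SW480 with the HKDC1 plasmid and 165, 167 and 181 CPM with empty vector. Its levels in COLO320DM were 248, 250.1 and 241 CPM with the HKDC1 plasmid and 219, 246 and 249 CPM with empty vector. All SW480 libraries were below all COLO320DM libraries, and with empty vector the log2 fold change was −0.48 (SE 0.08, adjusted p = 0.000133). CDK4 (ENSG00000135446, chromosome 12, 57747727 to 57756013, minus strand) overlaps TSPAN31, which lies on the other strand and shares 1369 exonic bases with it, and reads of the pair cannot be told apart without strand. TSPAN31 had 3286 to 4679 counts in SW480 and 4720 to 6097 in COLO320DM.

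CDK6 had 326, 285 and 278 CPM in SW480 with the HKDC1 plasmid and 335, 295 and 246 CPM with empty vector. The COLO320DM values were 127, 106 and 100.1 CPM with the HKDC1 plasmid and 135, 96.3 and 91.7 CPM with empty vector. CDK6 (ENSG00000105810) lies on the minus strand of chromosome 7 at 92604921 to 92836594, and shares 81 exonic bases with CDK6-AS1 (39 to 52 counts in SW480 and 12 to 34 in COLO320DM). The lines did not overlap, and CDK6 was higher in SW480 by 2.71-fold (log2 1.44, SE 0.16, adjusted p = 2.84e-06). Per length, CDK4 was the more abundant kinase in both lines, with 69.5% ± 2.02 of their summed density in SW480 with the HKDC1 plasmid and 69.9% ± 4.21 with empty vector, and 89.8% ± 1.08 with the HKDC1 plasmid and 89.7% ± 2.74 with empty vector in COLO320DM (SD, n = 3 each). That order holds per length only. By counts not divided by length, CDK4 made up 36.5% with the HKDC1 plasmid and 37.2% with empty vector in SW480, where CDK6 then led, and 69.0% with the HKDC1 plasmid and 68.9% with empty vector in COLO320DM. The plasmid effects were −0.01 for CDK4 and 0.02 for CDK6 in SW480, and 0.05 and 0.04 in COLO320DM, with 95% intervals between −0.32 and 0.38.

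Of the 4 CDK inhibitors, 3 were called higher in SW480 and 1 lower, and CDKN2B and CDKN1A had the largest fold changes between lines of the 10 genes. CDKN1A (ENSG00000124762, chromosome 6, 36676460 to 36687339, plus strand) encodes p21, a CDK inhibitor that stress signals induce. It had 18.8, 61.2 and 51.7 CPM in SW480 with the HKDC1 plasmid and 19.3, 64.8 and 63.9 CPM with empty vector. In COLO320DM the gene had 0.71, 0.67 and 1.30 CPM with the HKDC1 plasmid and 0.64, 1.07 and 1.18 CPM with empty vector, which are 24 to 51 counts a library. The lines did not overlap, and with empty vector CDKN1A was higher in SW480 by 51.1-fold (log2 5.67, SE 0.57, adjusted p = 1.11e-06). In SW480 the HKDC1 library was below the empty-vector library of the same number in 3 of 3 pairs. That difference was not called, at a log2 fold change of −0.17 (−1.10 to 0.77, adjusted p = 1), and at −0.15 (−0.30 to 0.01, adjusted p = 0.526) with the replicate number as a block. Its antisense neighbour DINOL, which shares 146 exonic bases, had 1 to 6 counts in SW480 and 0 to 1 in COLO320DM. In COLO320DM the plasmid effect was −0.12, with a wide interval of −1.57 to 1.32.

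CDKN1B (ENSG00000111276, chromosome 12, 12715058 to 12722369, plus strand), whose product p27 holds quiescent cells in G1, went the other way. It had 63.0, 69.0 and 68.7 CPM in SW480 with the HKDC1 plasmid and 64.6, 66.6 and 70.1 CPM with empty vector. In COLO320DM it had 97.4, 123 and 123 CPM with the HKDC1 plasmid and 102, 124 and 127 CPM with empty vector. All SW480 libraries were below all COLO320DM libraries, and with empty vector the log2 fold change was −0.81 (SE 0.11, adjusted p = 1.85e-05). Per length, CDKN1A made up 20.1 to 45.0% of the pair in SW480 and 0.458 to 0.884% in COLO320DM, where nearly all of the CIP/KIP read density was CDKN1B. The plasmid effect on CDKN1B was −0.00 in SW480 (−0.24 to 0.23) and −0.04 in COLO320DM (−0.27 to 0.19, 3 of 3 pairs lower).

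CDKN2A (ENSG00000147889, chromosome 9, 21967753 to 21995301, minus strand) gives 2 unrelated proteins from alternative first exons, p16, which blocks CDK4 and CDK6, and ARF, which shares none of its sequence. Counts per gene cannot separate their transcripts. CDKN2A had 26.3, 48.4 and 44.5 CPM in SW480 with the HKDC1 plasmid and 27.5, 50.0 and 49.4 CPM with empty vector. The COLO320DM libraries had 11.9, 13.7 and 11.5 CPM with the HKDC1 plasmid and 11.1, 14.9 and 15.3 CPM with empty vector. The lines did not overlap, and CDKN2A was higher in SW480 by 3.07-fold (log2 1.62, SE 0.25, adjusted p = 6.08e-05). Its exons share 668 bases with CDKN2B-AS1 on the other strand, which had 400 to 947 counts in SW480 and 174 to 318 in COLO320DM. The plasmid effect was −0.09 in SW480 (−0.61 to 0.43), with 3 of 3 pairs lower, and −0.16 in COLO320DM (−0.70 to 0.38).

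CDKN2B (ENSG00000147883), the neighbour of CDKN2A on the minus strand of chromosome 9 at 22002903 to 22009305, encodes p15, an INK4 inhibitor that TGF-β induces in epithelial cells. It had 25.7, 40.2 and 33.7 CPM in SW480 with the HKDC1 plasmid and 28.1, 41.2 and 41.3 CPM with empty vector. In COLO320DM it was near the floor of detection, at 0.27, 0.48 and 0.41 CPM with the HKDC1 plasmid and 0.28, 0.38 and 0.62 CPM with empty vector, or 11 to 27 counts a library. The fold change between lines was the largest of the 10 genes, at 85.0-fold higher in SW480 (log2 6.41, SE 0.29, adjusted p = 3.57e-10). Summed per length, the INK4 genes CDKN2A and CDKN2B stood at 17.5 ± 4.50 CPM per kilobase with the HKDC1 plasmid and 19.0 ± 4.86 with empty vector in SW480. In COLO320DM the sum was 2.95 ± 0.29 with the HKDC1 plasmid and 3.29 ± 0.57 with empty vector (SD, n = 3 each). The plasmid effect on CDKN2B was −0.15 in SW480 (−0.59 to 0.29, 3 of 3 pairs lower) and −0.18 in COLO320DM (−1.04 to 0.67).

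RB1 (ENSG00000139687, chromosome 13, 48303726 to 48599436, plus strand), the substrate of the D cyclin kinases and the gene that gives E2F control its brake, had 88.7, 81.0 and 73.4 CPM in SW480 with the HKDC1 plasmid and 83.6, 83.3 and 86.6 CPM with empty vector. COLO320DM cells had 157, 150.0 and 152 CPM with the HKDC1 plasmid and 170.3, 149.9 and 144 CPM with empty vector. All SW480 libraries were below all COLO320DM libraries, at a log2 fold change of −0.87 with empty vector (SE 0.09, adjusted p = 1.59e-06). The plasmid effect was −0.06 in SW480 (−0.26 to 0.14) and −0.02 in COLO320DM (−0.21 to 0.18). Counting all 10 genes, the empty-vector libraries of the lines did not overlap for 9, CCND2 being the exception, against 73.2% of all tested genes. Of all 10, 6 were without overlap and higher in SW480, against 38% of all tested genes, and 3 were lower, against 35.3%. Among the 17339 tested genes without overlap, SW480 was the higher line for 8990 and the lower for 8349.

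**Figure D3:**
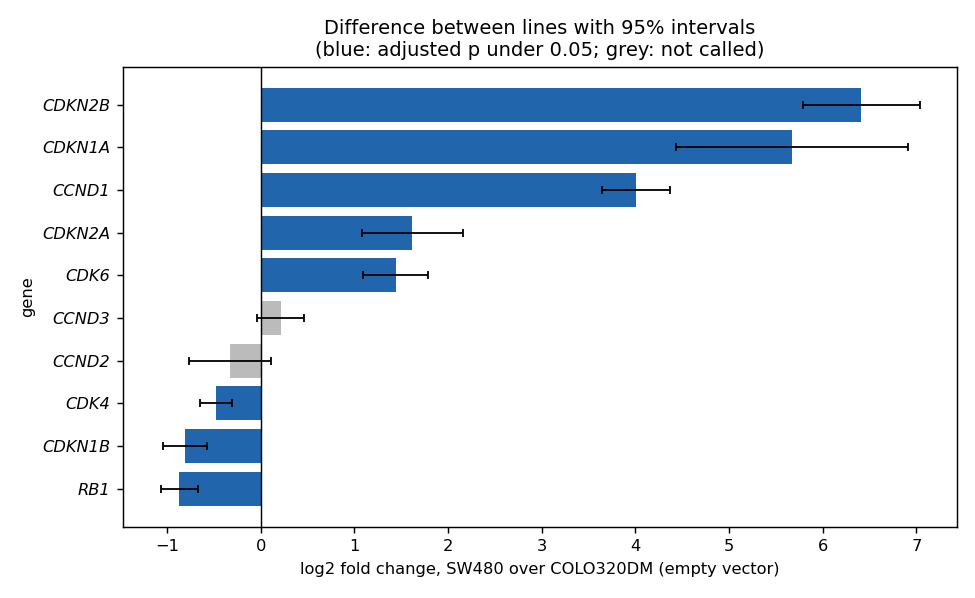
Log2 fold change of SW480 over COLO320DM with empty vector for each of the 10 genes (bars, with 95% intervals from edgeR), blue where the adjusted p was under 0.05. The longest bars are CDKN2B at 6.41, CDKN1A at 5.67 and CCND1 at 4.01, and CCND2 and CCND3 were not called.

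Sequences just upstream of the transcription starts are given for the 4 inhibitors, since 3 of them were higher in SW480 and the fourth lower. They are the parts free of annotated exons within the 250 bases before a RefSeq start, on GRCh38.p14 and written 5′ to 3′ on the strand of the gene. The stretches are chr6:36678560-36678657 (plus strand) for CDKN1A, chr9:21995325-21995481 (minus strand) for the upstream start of CDKN2A, from which ARF transcripts begin, chr9:22009306-22009555 (minus strand) for CDKN2B and chr12:12717118-12717367 (plus strand) for CDKN1B. Capitals mark GC boxes, GGGCGG on either strand, the letters known to bind SP1.
CDKN1A: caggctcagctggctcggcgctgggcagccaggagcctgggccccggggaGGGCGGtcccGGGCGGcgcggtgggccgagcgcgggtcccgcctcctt
CDKN2A: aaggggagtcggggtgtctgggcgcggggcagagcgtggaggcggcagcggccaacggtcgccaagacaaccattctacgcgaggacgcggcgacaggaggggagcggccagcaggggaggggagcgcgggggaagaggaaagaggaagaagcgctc
CDKN2B: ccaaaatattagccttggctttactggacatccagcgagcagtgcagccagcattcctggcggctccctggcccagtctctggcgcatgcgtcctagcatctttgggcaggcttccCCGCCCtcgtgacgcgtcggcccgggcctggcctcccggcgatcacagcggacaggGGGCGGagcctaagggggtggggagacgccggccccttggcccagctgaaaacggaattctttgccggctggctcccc
CDKN1B: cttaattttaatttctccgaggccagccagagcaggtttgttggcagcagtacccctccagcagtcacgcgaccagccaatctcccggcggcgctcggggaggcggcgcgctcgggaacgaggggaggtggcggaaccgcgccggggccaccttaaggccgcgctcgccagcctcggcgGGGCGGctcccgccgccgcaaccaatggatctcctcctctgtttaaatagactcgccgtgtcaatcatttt
The whole 250-base windows held 4 GC boxes in CDKN1A, 0 in this window of CDKN2A, 2 in CDKN2B and 1 in CDKN1B, and 42.6% of 35116 windows in the RefSeq promoter table held at least 1. A second CDKN2A window, before its downstream start, held 1 GC box and is nearly all annotated exon, so it is not printed. None of these 4 windows held TATAAA, found in 10.7% of all windows, CACGTG, found in 6.35%, or an E2F motif (TTTCCCGC, TTTGGCGC, TTTGCCGC or TTTCGCGC), found in 2.79%, each read on both strands. The G plus C content was 76.4% in CDKN1A, 66.8% in CDKN2A, 66.4% in CDKN2B and 64.4% in CDKN1B, against a median of 58.0% over all windows. These letters describe the windows only. Entries for CCND1 and CCND2 were not used here.

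Within each line the order of the 10 genes by mean CPM per kilobase was the same with either plasmid, except that CDKN1B stood above CCND2 in SW480 with the HKDC1 plasmid, where their ranges overlapped. In SW480 with empty vector, CDK4 (55.3) and CCND1 (55.3) led with overlapping ranges, followed by CCND2 (26.4), CDKN1B (26.2), CDK6 (23.8), CDKN1A (16.2) and RB1 (13.1), each overlapping the next. CDKN2A (9.76) and CDKN2B (9.21) overlapped each other, and CCND3 (4.88) came last. In COLO320DM with empty vector the order was CDK4 (77.0), CDKN1B (45.8), CCND2 (33.2), RB1 (24.0), CDK6 (8.79), CCND3 (4.21), CCND1 (3.44), CDKN2A (3.18), CDKN1A (0.316) and CDKN2B (0.107). There, CCND1 and CDKN2A were the only neighbours whose ranges overlapped.

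The plasmid effect on the 10 genes was small in both lines. Fitted log2 fold changes lay between −0.17 and 0.05 in SW480, with 2 above 0 and 8 below, and between −0.18 and 0.10 in COLO320DM, with 5 above and 5 below. The median size of a fitted log2 change over all tested genes was 0.10 in SW480 and 0.08 in COLO320DM. The difference between the 2 plasmid effects was called for 0 of the 10 genes, against 0.00844% of all genes, and its values lay between −0.14 and 0.07. At an unadjusted p under 0.05 the count was also 0 of 10 in each line and for the difference, and 356 of all genes in SW480 and 312 in COLO320DM. With the replicate number as a block, the calls over all genes increased to 180 in SW480 (0.76%) and 18 in COLO320DM (0.076%), and to 10 for the difference (0.0422%), and still 0 of the 10 genes were called in each. DESeq2 and limma-voom with group means called 0 of the 10 as well. The narrower block intervals, which assume that the numbers pair the samples, put the SW480 effect of CDK4 between −0.12 and 0.11. They put that of CCND1 between −0.16 and 0.05 and that of RB1 between −0.19 and 0.06. These intervals give the range within which a change could have gone undetected, and a p that misses the threshold does not show that the genes did not respond.

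**Figure D4:**
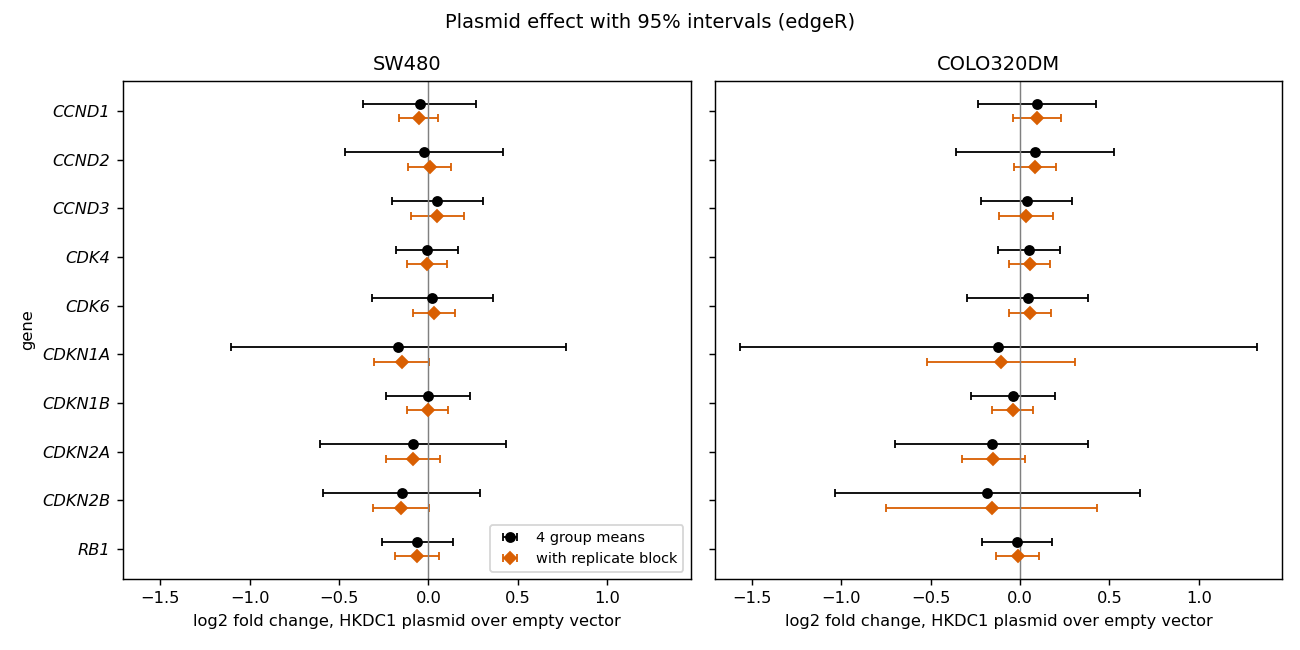
Log2 fold change of the HKDC1 plasmid over empty vector for the 10 genes in SW480 and COLO320DM, with 95% intervals from edgeR fits with 4 group means (black circles) and with the replicate number as a block (orange diamonds). Each interval includes 0, and the widest is that of CDKN1A in COLO320DM, from −1.57 to 1.32 with group means.

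Some of the 10 genes differed between replicate 1 and replicates 2 and 3 with both plasmids, most of all CDKN1A in SW480. In SW480, CDKN1A in replicate 1 was at 0.333 times the mean of replicates 2 and 3 with the HKDC1 plasmid and at 0.299 times with empty vector. In size, this gap was larger than that of 97.5% of all tested genes in either group. CDKN2A was at 0.567 times with the HKDC1 plasmid and 0.553 times with empty vector, and CDKN2B at 0.695 times with the HKDC1 plasmid and 0.682 times with empty vector. CCND1 was higher in replicate 1, at 1.44 times with the HKDC1 plasmid and 1.36 times with empty vector, and CCND2 at 1.46 times with the HKDC1 plasmid and 1.77 times with empty vector. CDK4, CCND3, CDKN1B and RB1 in replicate 1 of SW480 lay between 0.915 and 1.15 times the mean of the others. In COLO320DM, CDKN2B was at 0.609 times with the HKDC1 plasmid and 0.562 times with empty vector, CDKN1A at 0.717 times with the HKDC1 plasmid and 0.565 times with empty vector, both genes at low counts, and CDK6 at 1.23 times with the HKDC1 plasmid and 1.44 times with empty vector. CCND1 in COLO320DM was at 1.00 times with the HKDC1 plasmid and 1.06 times with empty vector. Without replicate 1 of every group, 720 genes (3.03%) were called in SW480, of which 0 were among the 10, and 8 genes were called in COLO320DM (0.0337%) and 75 for the difference (0.316%), again 0 of the 10. Between lines 9 of the 10 were then called, with CCND2 added, against 79.3% of all genes. CDKN1A then had a log2 fold change in SW480 of −0.21 (adjusted p = 0.235) and RB1 of −0.16 (adjusted p = 0.209).

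By the SD of log2 CPM around each line's mean over the 12 libraries, CDKN1A (0.68) and CDKN2B (0.36) varied most among the 10 genes and CDK4 (0.06) least. Among 11497 genes with a mean of at least 10 CPM, those most like CDKN1A in this line-centred pattern were ARSG (Pearson r 0.97), TNFAIP3 (0.97) and VAMP2 (0.96). TNFAIP3, an inhibitor of NF-κB signalling, had 10.9, 32.8 and 31.2 CPM in SW480 with the HKDC1 plasmid and 11.5, 36.4 and 31.9 CPM with empty vector. Those most like CDKN2B were PCGF1 (0.97), PIGL (0.94) and the pseudogene RPS3AP26 (0.94). These correlations are descriptions over 12 libraries that share lines and replicate numbers, and the part of replicate 1 in them was not tested. In COLO320DM, CDKN1A had 24 to 51 counts a library and CDKN2B 11 to 27, so counting noise enters their SD and pattern there.

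The partners of these genes in the G1/S switch, 22 genes of the cyclin E, CDK2, E2F and pocket protein machinery, were compared between the lines in the same way. With empty vector, 9 were called higher in SW480, against 37.3% of all genes, and 10 lower, against 34.3%, with a median log2 fold change of −0.07 against 0.04 over all genes. The highest fold changes were those of RBL1, an RB1 relative (1.18), E2F6 (0.69), CDK7 of the CDK-activating kinase (0.63), E2F8 (0.53) and CDC25A (0.51). The lowest were those of the inhibitors CDKN1C, or p57 (−1.32), and CDKN2C, or p18 (−1.26), of the E2F partners TFDP2 (−1.08) and TFDP1 (−0.74), and of CDK2, the partner of cyclin E (−1.06). CDK2 had 58.0, 49.0 and 49.3 CPM in SW480 and 107, 108 and 111 CPM in COLO320DM with empty vector, with no overlap.

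Among 20 regulators of D cyclins and CDK inhibitors, 7 were called higher in SW480, against 37.3% of all genes, and 10 lower, against 34.3%. FBXO4, a ubiquitin ligase component tied to D cyclins (2.46), CTNNB1, which encodes β-catenin (2.26), CBX7, a Polycomb protein (1.88), and the WNT effector TCF7L2 (0.60) were among the higher ones. BMI1, the Polycomb repressor of CDKN2A (−1.77), FOXO1 (−1.61), SKP2, which marks p27 for degradation (−1.15), FOXO4 (−0.94) and AMBRA1, which directs D cyclins to degradation (−0.80), were lowest. CTNNB1 had 1280, 775 and 825 CPM in SW480 and 203, 197 and 201 CPM in COLO320DM with empty vector, so the lines did not overlap.

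Of 13 E2F target genes, 6 were called higher, among them MCM7 (1.54), MCM6 (1.40), PCNA (0.64), RRM2 (0.57) and CDC6 (0.57), and MCM2 was called lower (−0.74), beside the same shares of all genes, 37.3% higher and 34.3% lower. The median of the E2F targets was 0.28, against 0.04 over all genes.

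With the HKDC1 plasmid, 0 genes of these 3 lists were called in either line with group means. The E2F targets, genes of DNA replication that the RB1 pathway controls, had log2 fold changes above 0 in 13 of 13 in SW480, against 49.8% of all genes. Their median there was 0.15, against 0.00 over all genes. In COLO320DM 13 of 13 were above 0, against 47.3% of all genes (median 0.08, against −0.00). The count was 12 of 13 in each line without replicate 1 of every group. Leaving out replicate 2, with the block, it was 12 in SW480 and 11 in COLO320DM. The 13 genes were measured in the same libraries, so they are not independent of each other. With the replicate block, MCM4, a subunit of the replicative helicase, and PCNA, the sliding clamp of DNA polymerase, were called higher in SW480, at 0.28 (SE 0.06, adjusted p = 0.0138) and 0.24 (SE 0.06, adjusted p = 0.0196), where 0.165% of all genes were called higher. MCM4 had 357, 209 and 235 CPM with the HKDC1 plasmid and 349, 160 and 175 CPM with empty vector, so it was higher in each pair while the groups overlapped. PCNA had 373, 230.4 and 242 CPM with the HKDC1 plasmid and 345, 179.6 and 201 CPM with empty vector, in the same pattern.

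The calls in these lists changed with the replicate left out. Without replicate 1 in every group, and with the block kept, 6 of the 13 E2F targets were called higher in SW480, against 2.29% of all genes in either direction. In COLO320DM 0 were called, against 0.0505%. The 6 were MCM2, MCM3, MCM4, MCM5, MCM7 and PCNA. That fit rests on replicates 2 and 3 alone, and the data do not show which of their libraries pair. The spread between replicates 2 and 3, which the calls are set against, may be too narrow. In the same fit the regulator BMI1 (−0.31, adjusted p = 0.0281) was called lower in SW480. The difference between lines in the plasmid effect was then called for 0 genes of these 3 lists, against 0.206% of all genes. With group means in place of the block, also without replicate 1, CDC6 (0.25, adjusted p = 0.0357) was called higher in SW480 as well. The partner CDKN2D (−0.40, adjusted p = 0.0333) and the regulator ZBTB17 (−0.29, adjusted p = 0.0405) were called lower, where 3.03% of all genes were called in either direction. Without replicate 2 of every group, 0 genes of these lists were called with the block, and without replicate 3 only PCNA (0.23) was. With the block over all libraries, 0 of the 22 partners and 0 of the 20 regulators were called in SW480, where 0.595% of all genes were called lower. Of the 22 partners, 11 had fold changes above 0 and 11 below in each line. In COLO320DM, 0 genes of these lists were called with the block.

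**Figure D5:**
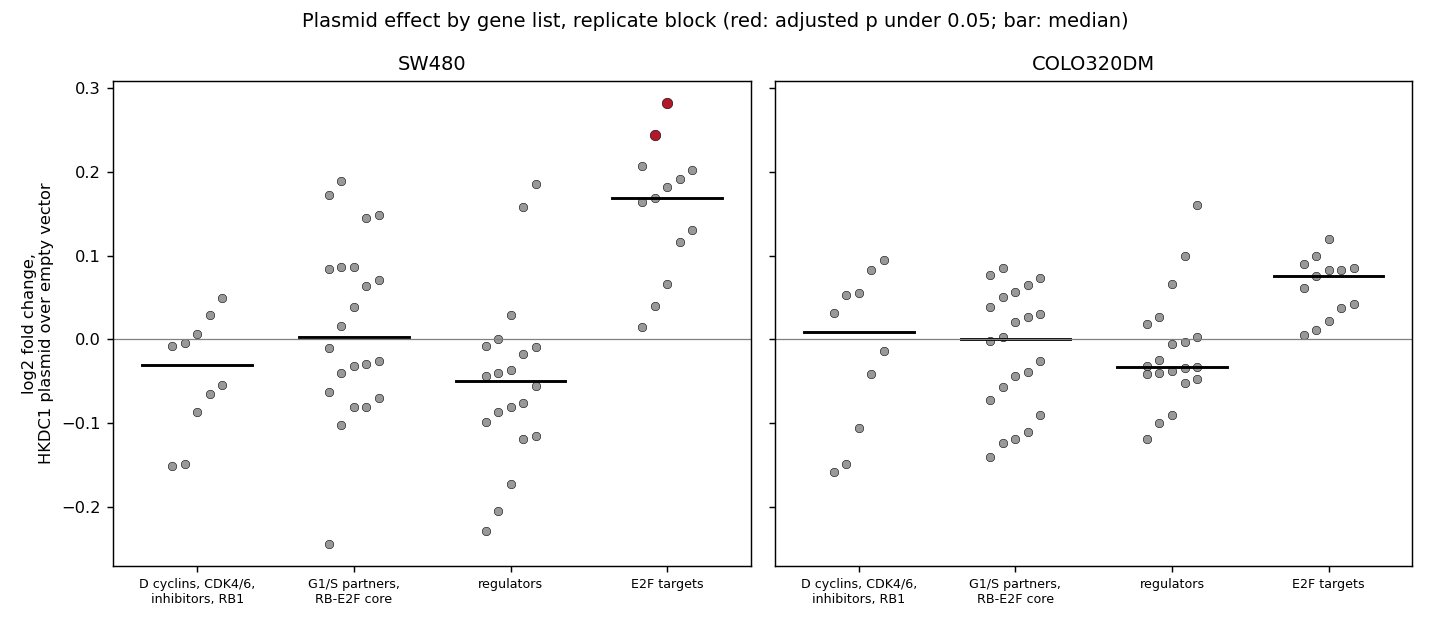
Log2 fold change of the HKDC1 plasmid over empty vector for each gene of 4 lists in SW480 and COLO320DM, from edgeR with the replicate block, with a bar at each list's median and red points for genes called. In SW480 the E2F targets lie above 0 with MCM4 and PCNA called, and the 10 cyclin, kinase and inhibitor genes lie between −0.15 and 0.05.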

How the data were processed

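Poly-A RNA of 12 libraries was sequenced, and the values are raw counts per gene that the authors deposited as 1 table with gene positions and exon lengths. HISAT2 2.1.0, limma and the GRCh38 build are listed, per the submitters' processing notes, without their roles. How reads were assigned to genes, with which annotation release and with what strand setting, is not given in the sources used here. Gene symbols came from a reference table and were found for 60295 of 60623 identifiers. The members and lists were chosen with earlier results of these data known.

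All 12 libraries entered 1 edgeR 4.0.16 model (R 4.3.3) with 4 group means, robust quasi-likelihood F tests and TMM scaling, after filterByExpr with a minimum count of 10 and a minimum total of 15. Adjusted p-values are Benjamini-Hochberg over 23684 genes. The SE comes from the log2 fold change and its F statistic, as their ratio on the root scale. Tests and intervals rest on 8 residual degrees of freedom plus those borrowed across genes. Levels between genes were compared as CPM per kilobase of merged exons. Shares were tested by exact two-sided permutation within a line. The fit was tested on simulated data, with changes larger than the plasmid effects on the 10 genes and no replicate effect. It therefore did not test the pairing or changes as small as these.

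The labels number replicates 1 to 3 in each group. Across genes, the deviations of an HKDC1 library and the empty-vector library of its number had correlations of 0.72, 0.44 and 0.31 in SW480 and 0.40, 0.13 and 0.12 in COLO320DM, each over 0.1, so the numbers were taken to pair the samples, on the data alone. Each HKDC1 library of replicates 2 and 3 correlated more with the empty-vector library of the other number (0.47 and 0.37 in SW480, 0.16 and 0.15 in COLO320DM). Deviations were taken from the mean of each group, so a shared deviation of replicate 1 by itself raises the correlations among replicates 2 and 3. The data thus set replicate 1 apart, but do not show which libraries of replicates 2 and 3 pair. Same-numbered pair counts and block fits rest on the numbers there, and those pairs may not be independent. The block was the replicate number within a line, leaving 4 residual degrees of freedom, and its narrower intervals also rest on degrees of freedom borrowed across genes. Alternatives were DESeq2 1.42.0, limma-voom (limma 3.58.1), no TMM, no low-count filter, each line alone, leaving out replicates (a library left alone in a group is assumed to vary like the others), and shares not divided by length. All 10 members were named, with every called list gene in the plasmid comparisons, up to 5 per direction between lines, and the 3 genes most like the 2 most variable members. The levels of CDK2, CTNNB1 and TNFAIP3 were singled out after their values were seen. Calls of the lists without replicate 1 were added after seeing the data. Promoter windows came from a RefSeq table on GRCh38.p14, which matched 8 of the 10 genes. Results for 1 regulator and 1 list of target genes are not reported here.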

Additional observations from a re-analysis of the deposited data

How the results depend on the processing

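For the 10 genes, 0 were called for the plasmid effect in either line, or for its difference between lines, under every alternative run, with adjusted p of at least 0.209 in SW480, 0.623 in COLO320DM and 0.363 for the difference. Between lines, 8 were called in each alternative, or 9 with CCND2 added, namely without TMM (−0.43, adjusted p = 0.0378) and without replicate 1 as given above.

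With the replicate block, 180 genes of the whole table were called by edgeR and 99 by DESeq2 in SW480, against 3 without it. The counts were 18 and 6 against 2 in COLO320DM, and 10 and 13 against 2 for the difference. The block changed no call among the 10 genes. Leaving out replicates gave 2 to 720 genes in SW480, 2 to 31 in COLO320DM and 2 to 85 for the difference, block kept or not. With the block kept, SW480 had 543 without replicate 1, 59 without replicate 2 and 135 without replicate 3. Leaving out replicate 1 of SW480 with empty vector alone gave 5 in SW480. The contrast of lines was not fitted with the block, because each block lies within 1 line.

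Uncalled plasmid effects near 0 turned direction. In SW480 CDK6 was −0.0021 without TMM, and CCND2 was 0.0077 with limma-voom, 0.0066 with the edgeR block and 0.0033 with the DESeq2 block. The difference between lines for CDKN2B was −0.015 with limma-voom and −0.0044 with the DESeq2 block. Leaving out replicates gave, in SW480, CCND1 −0.24 to 0.096, CCND2 −0.23 to 0.28, CCND3 −0.0092 to 0.074, CDK4 −0.053 to 0.030, CDK6 −0.091 to 0.11, CDKN1A −0.57 to 0.18, CDKN1B −0.050 to 0.034, CDKN2A −0.34 to 0.13, CDKN2B −0.33 to 0.00017 and RB1 −0.16 to 0.021. In COLO320DM it gave CCND3 −0.043 to 0.16, CDK4 −0.0086 to 0.11, CDK6 −0.068 to 0.24, CDKN1A −0.47 to 0.15, CDKN1B −0.13 to 0.061, CDKN2B −0.44 to 0.19 and RB1 −0.068 to 0.056. For the difference between lines it gave CCND2 −0.31 to 0.20, CCND3 −0.11 to 0.093, CDK6 −0.22 to 0.089, CDKN1A −0.45 to 0.30, CDKN1B −0.066 to 0.13, CDKN2A −0.18 to 0.29, CDKN2B −0.34 to 0.26 and RB1 −0.20 to 0.074. The cause was not tested.

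Without division by length, CCND1 took 54.4% of the D cyclin counts with the HKDC1 plasmid and 55.5% with empty vector in SW480, and 6.04% with the HKDC1 plasmid and 5.97% with empty vector in COLO320DM. CCND2 took 39.2% with the HKDC1 plasmid and 38.4% with empty vector in SW480, and 85.5% with the HKDC1 plasmid and 85.3% with empty vector in COLO320DM. CCND3 took 8.47% with the HKDC1 plasmid and 8.74% with empty vector in COLO320DM. These moved because exon lengths differ. CDKN1A and CDKN2B had 11 to 51 counts a library in COLO320DM, and wide plasmid intervals there, but CDKN1A in SW480, with 661 to 2907 counts, had a wide one too.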
